A study of Mus musculus with 18 samples.

Results

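Cells of the DN2 fraction of an NPM-ALK lymphoma of mice were compared with healthy LSK cells, the lineage-negative, SCA1-positive and KIT-positive cells of bone marrow. The comparison holds 6 of the 18 arrays of the series, 3 titled as DN2 and 3 titled as healthy LSK, and the titles alone placed them. The 12 arrays of the lymphoma fractions CLP, DN1, DN3 and DN4, 3 in each, served to find where DN2 stood apart from them. DN2 cells came from lymphomas of the thymus, taken from moribund mice of the genotype Lck-Cre transgene. These mice had been irradiated sublethally and given bone marrow carrying a retrovirus for NPM-ALK, a fusion of nucleophosmin with the kinase ALK. The labels give its expression as restricted to early T cells, the cells in which the Lck promoter drives Cre. The labels do not say how many of the sorted cells carried the virus or stemmed from the irradiated host. LSK cells came from bone marrow of healthy wildtype mice aged 18 months. The age field is blank for the DN2 arrays. The groups therefore differ in tissue, genotype, irradiation and transplantation as well as in the lymphoma, and perhaps in age. The effects of these cannot be told apart. The description fields name other mice, aged NIPA KO for LSK and aged wild type for DN2, with irradiation at 4 Gy for all 3 DN2 arrays and for LSK replicate 3. They give the same dose for 3 DN1, 3 DN3, 2 CLP and 0 DN4 arrays, so by these fields DN2 also differs from DN4, and in part from CLP, in irradiation. The titles and genotype fields were followed. The labels do not tie replicates to separate animals, so the p-values measure the spread between these arrays, which may in part be technical.

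In the normal thymus, DN2 cells carry KIT, CD44 and CD25, divide under Notch, KIT and IL-7 signals and commit to the T lineage before their receptor genes are tested at DN3. LSK cells hold the blood stem cells, many of which are quiescent, and the multipotent progenitors. A cell enters S phase when D cyclins with CDK4 or CDK6, and then cyclin E, phosphorylate RB and release E2F, which switches on the replication genes. Mitotic genes follow under B-MYB, FOXM1 and the MuvB complex, which reads CHR elements in their promoters, and INK4 and KIP proteins hold the D cyclin kinases back.

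The sort marker genes were read first, as a check of the DN2 label and not as a result. Il2ra, which encodes CD25, stood at 11.81, 11.86 and 11.76 on the DN2 arrays, against 10.15, 9.36 and 9.33 on the LSK arrays. Kit stood at 10.65, 10.79 and 10.59 on the DN2 arrays, against 10.69, 10.79 and 11.21 on the LSK arrays. Cd44 stood at 6.15, 5.82 and 5.87 on the DN2 arrays, against 7.28, 7.57 and 7.22 on the LSK arrays. Il2ra and Kit were high in DN2, as the DN2 label calls for, and both passed as higher than the mean of the other fractions. Kit was no higher than in LSK, however, and did not pass against DN1. Il7r passed as higher in DN2 than in LSK. Cd44 was close to the background band described next and lay below all 3 LSK arrays and below DN1 (mean 6.64). Of the coreceptor genes whose proteins a double-negative cell lacks, Cd8a lay in or below that band on every DN2 and LSK array. Even so, Cd8a passed as higher in DN2 than in LSK, without overlap. Cd8b1 and Cd4 lay above the band on the DN2 arrays and were higher than in LSK too. Cd8b1 read 8.0, 8.14 and 8.37 on the DN2 arrays, against 5.19, 4.85 and 5.63 on the LSK arrays (log2 difference 2.95, SE 0.19, adjusted p = 3.24e-07). Cd4 read 6.30, 6.43 and 6.44 on the DN2 arrays, against 4.66, 5.24 and 4.96 on the LSK arrays (log2 difference 1.44, SE 0.15, adjusted p = 2.39e-05). In both the LSK arrays were at background, so the RNA of 2 coreceptor genes goes against the label, with Cd8b1 at 8.48 to 8.81 on average in the other fractions. Ly6a, which encodes SCA1, was not analysed here. For the marker counts that follow, 25.4% of all genes differed between DN2 and LSK at adjusted p under 0.05 (limma). Of all genes, 11.4% were higher in DN2. All 8 measured T cell markers were higher in DN2 than in LSK, with a summed linear signal of 22028 to 26240 over DN2 arrays and 1086 to 1353 over LSK arrays. Of 10 measured LSK markers 9 were lower in DN2, and all but Kit were at background on every DN2 array. Of 13 B cell and plasma cell markers, 10 were at background on all DN2 arrays, among them Cd79a, Ms4a1 and Pax5. Against LSK 5 of the 13 were lower and 1, Sdc1, was higher (log2 difference 2.03). The 13 summed to 654 to 758 in DN2 and 591 to 1423 in LSK. Of 17 granulocyte and mast cell markers 13 were at background in DN2, among them Mpo and S100a8, with sums of 597 to 735 in DN2 and 4828 to 7315 in LSK. Of 13 macrophage markers 7 were at background in DN2, with Adgre1 and Lyz2 among them, while 3 were higher than in LSK and 6 lower. Their sums were 1014 to 1241 in DN2 and 1296 to 1405 in LSK. In 10 erythroid and megakaryocyte markers the sums were 418 to 449 in DN2 and 1820 to 2243 in LSK, in 10 dendritic cell markers 1602 to 2015 in DN2 and 2358 to 2764 in LSK, and in 12 NK markers 3459 to 4843 in DN2 and 883 to 1063 in LSK. Most of the NK sum in DN2 was 1 gene, Gzma, and 2 of the 12 NK markers were higher, 4 lower and 7 at background on every DN2 array. The stroma list summed to 6772 to 8128 in DN2 and 1591 to 1766 in LSK, most of it 1 gene, Pdgfrb, the receptor of a platelet growth factor, at a mean of 12.54 in DN2 and 7.94 in LSK. The part of other cell types in the results below was not tested beyond these values.

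Signals are log2 RMA values, so a difference of 1 is a 2-fold difference. Olfactory receptor probe sets, silent in blood cells, gave a background band of 5.35 to 5.70, the range over arrays of their 95th percentile. A log2 difference in which 1 group lies in or below the band is not an exact fold. Arrays correlated across genes with r of 0.992 to 0.993 within DN2, 0.987 to 0.991 within LSK and 0.968 to 0.975 within CLP, the least uniform group. By Xist and the Y-linked gene Eif2s3y, the 3 DN2 arrays and LSK array 1 read as male, LSK array 3 as female and LSK array 2 as both (Xist 3.90 on average in DN2 and 3.55, 10.74 and 10.00 on the LSK arrays). Since the arrays hold bulk RNA, fewer cells that express a gene and less RNA per cell cannot be told apart.

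Against LSK, 5638 of 22180 genes passed the test (limma, adjusted p under 0.05), which is 25.4% of all genes. Of these, 2532 were higher and 3106 lower in DN2, and 1955 differed at least 2-fold. The 3 CD3 chains were among the largest rises, and the stem cell genes Meis1 and Cd34 among the largest falls. The 12 largest rises were in Cd3g, Cd3e and Cd3d, chains of the T cell receptor complex, Gzma, a granzyme of cytotoxic granules, Slamf6, a receptor of the SLAM family, Slc15a1, a carrier of short peptides, Mpzl2, an adhesion molecule of thymic tissue, and Endou, Lrrn3, Moxd1, Smok4a and Fstl4. Cd3g (probe set 17526456, chromosome 9) read 12.20, 12.24 and 12.52 on the DN2 arrays, against 4.67, 4.97 and 4.26 on the LSK arrays (log2 difference 7.69, SE 0.18, adjusted p = 1.74e-10). Gzma (chromosome 13) read 11.79, 11.41 and 12.03 on the DN2 arrays, against 4.5, 4.04 and 4.62 on the LSK arrays (log2 difference 7.36, SE 0.19, adjusted p = 3.12e-10). In both, LSK lay at background and the groups were far apart. The 12 largest falls were in Meis1 and Cd34, a transcription factor and a surface protein of stem and progenitor cells, Car2, a carbonic anhydrase, Lilrb4a, an inhibitory receptor of myeloid cells, Rgs18, a regulator of G protein signals in platelets, Cd63, a lysosomal tetraspanin, and Adgrl4, Neurl3, Ctla2a, Gabarapl1, Myct1 and Pla2g4a. Meis1 read 4.41, 4.41 and 4.21 on the DN2 arrays, against 10.12, 10.62 and 10.36 on the LSK arrays (log2 difference -6.03, SE 0.15, adjusted p = 2.45e-10), and DN2 lay at background. The falls stood beside the granulocyte and erythroid marker sums given above, which were higher in LSK, and the part of such cells in them was not tested.

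Many genes of DNA replication and division were higher in DN2 than in LSK and few were lower, while few of those of ribosome building differed. Over 8 lists with 361 genes, 301 were measured by a probe set of 1 gene and the others were not analysed here. Of the 301, 132 were higher and 10 lower in DN2, which is 43.9% higher against 11.4% higher among all genes. The median log2 difference was 0.38 over the 301 genes and 0.04 over all genes. On 165 of the 301 genes all 3 DN2 arrays lay above all 3 LSK arrays and on 17 below them, while 39.5% of all genes showed no overlap in either direction. The count of rises was 99 without DN2 replicate 2 and 142 without LSK replicate 1. The mean level of the 301 genes was 8.39 to 8.55 over DN2 arrays and 7.92 to 8.25 over LSK arrays, and DN2 array 1 was the lowest of its group.

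**Figure D1:**
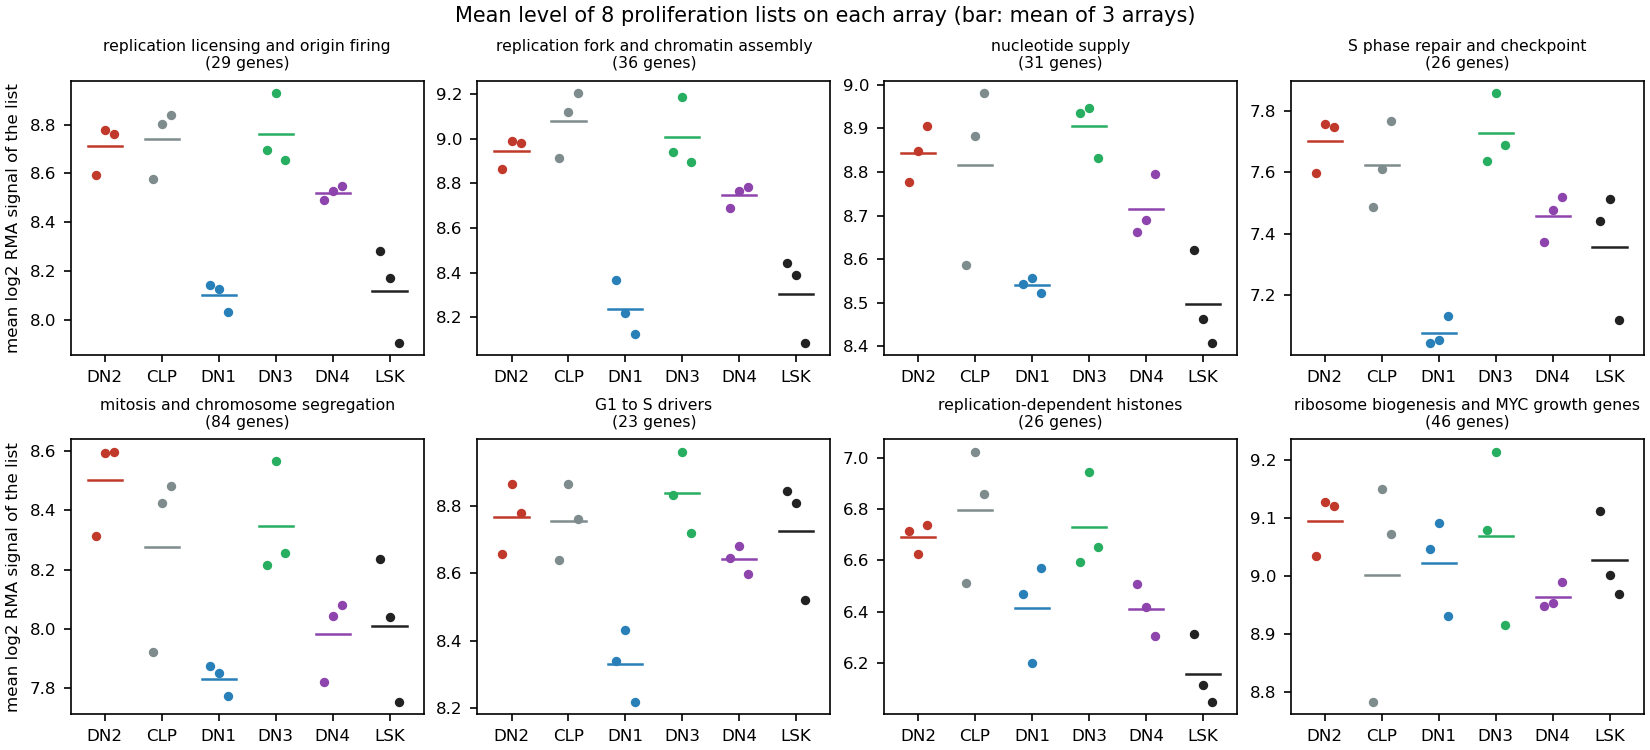
Mean log2 RMA signal (vertical axis) of 8 lists of proliferation genes on each array, with DN2 at the left of each panel, the other fractions next and LSK at the right, and a bar at the mean of 3 arrays. In replication licensing, DN2 lay at 8.60 to 8.78, above DN1 (8.03 to 8.14) and LSK (7.91 to 8.28), while in ribosome biogenesis DN2 (9.04 to 9.13) and LSK (8.97 to 9.11) overlapped.

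Of 29 genes that license and fire replication origins, 18 were higher in DN2 than in LSK and 0 lower, with a median log2 difference of 0.60. Among all genes 11.4% were higher. Gins1, a subunit of the GINS part of the replicative helicase, read 8.35, 8.49 and 8.75 on the DN2 arrays, against 7.40, 7.09 and 6.94 on the LSK arrays (log2 difference 1.39, SE 0.15, adjusted p = 3.63e-05). Cdc6, which loads the MCM helicase, read 8.84, 9.16 and 9.0 on the DN2 arrays, against 7.85, 8.22 and 7.29 on the LSK arrays (log2 difference 1.21, SE 0.20, adjusted p = 0.000892). Neither gene overlapped between the groups, though the LSK arrays of Cdc6 spread over almost a log2 unit. Mcm4, a helicase subunit (log2 difference 0.88), Gins2 (1.23) and Cdt1, the loading partner of Cdc6 (1.04), also rose. Of 36 genes of the replication fork and of chromatin assembly, 23 were higher and 0 lower, with a median of 0.69. Prim2, a primase subunit, read 9.68, 9.32 and 9.53 on the DN2 arrays, against 8.05, 7.95 and 7.88 on the LSK arrays (log2 difference 1.55, SE 0.13, adjusted p = 3.49e-06). Uhrf1, which carries DNA methylation over to the new strand, read 9.70, 10.04 and 9.79 on the DN2 arrays, against 8.94, 8.50 and 8.14 on the LSK arrays (log2 difference 1.32, SE 0.19, adjusted p = 0.000266). Again no DN2 array came down to an LSK array in these 2 genes, and Rnaseh2b, a subunit of the enzyme that removes ribonucleotides from DNA (log2 difference 1.08), and Dscc1, a clamp loader subunit (0.85), rose with them.

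Of 31 genes of nucleotide supply, 18 were higher and 4 lower, with a median of 0.62, beside 25.4% of all genes called and 11.4% called higher. Tk1, the thymidine kinase of S phase, read 9.13, 9.37 and 9.11 on the DN2 arrays, against 7.71, 7.75 and 7.30 on the LSK arrays (log2 difference 1.61, SE 0.15, adjusted p = 7.46e-06). Prps2, a synthetase of the ribose phosphate donor for nucleotides and a gene of the X chromosome, differed by 1.66, Dut, which clears dUTP, by 1.16, and Rrm2, the small subunit of ribonucleotide reductase, by 1.10. Samhd1, which breaks down deoxynucleotides, went the other way and read 5.11, 5.33 and 5.18 on the DN2 arrays, against 9.04, 8.80 and 8.96 on the LSK arrays (log2 difference -3.73, SE 0.12, adjusted p = 2.02e-09). DN2 lay just below the background band there, and the LSK arrays stood near 9. Shmt2, the mitochondrial enzyme that draws carbon units from serine, was lower too, by 0.87. The replication-dependent histones, made in S phase, were higher in 14 of 26 measured genes and lower in 0, with a median of 0.53. H1f5, a linker histone, led them with 7.99, 7.76 and 8.11 on the DN2 arrays, against 6.09, 5.77 and 5.88 on the LSK arrays (log2 difference 2.04, SE 0.14, adjusted p = 5.72e-07), and the groups did not overlap. H2ac10 differed by 1.28 and H2ac20 by 1.25. The histone genes are near-identical copies, so signals of single histones are uncertain.

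Among 26 genes of repair and checkpoint in S phase, 8 were higher and 0 lower, with a median of 0.23, beside 11.4% of all genes higher. Neil3, a DNA glycosylase of dividing cells, read 9.34, 9.47 and 9.38 on the DN2 arrays, against 8.16, 8.10 and 7.84 on the LSK arrays (log2 difference 1.36, SE 0.13, adjusted p = 8.72e-06). Chek1, the checkpoint kinase of stalled forks, differed by 0.64 and Mms22l, which acts in the repair of broken forks, by 0.77. The count was 4 without DN2 replicate 2, without DN2 replicate 3 and without LSK replicate 3. Among 84 mitotic genes, 40 were higher and 0 lower, with a median of 0.49, and the count was 26 without DN2 replicate 2. Ncaph, a condensin subunit, read 9.01, 9.20 and 9.17 on the DN2 arrays, against 8.13, 7.74 and 7.53 on the LSK arrays (log2 difference 1.33, SE 0.16, adjusted p = 5.65e-05). Cdc25b, a phosphatase that activates CDK1, differed by 1.21, Ect2, which starts the cleavage furrow, by 1.07, and Smc4, a condensin core subunit, by 0.96. All 3 DN2 arrays lay above all 3 LSK arrays in these 4 genes. Ribosome biogenesis differed from this pattern: of 46 genes 3 were higher and 2 lower, a share of 10.9% called, below the 25.4% of all genes, with a median of 0.10. The differences it did show were small, at 0.43 for Ebna1bp2 and 0.42 for Dkc1, both factors of ribosome maturation, and -0.44 for Nop16, a nucleolar protein. Each of the 3 lost its call when 1 array was left out.

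**Figure D2:**
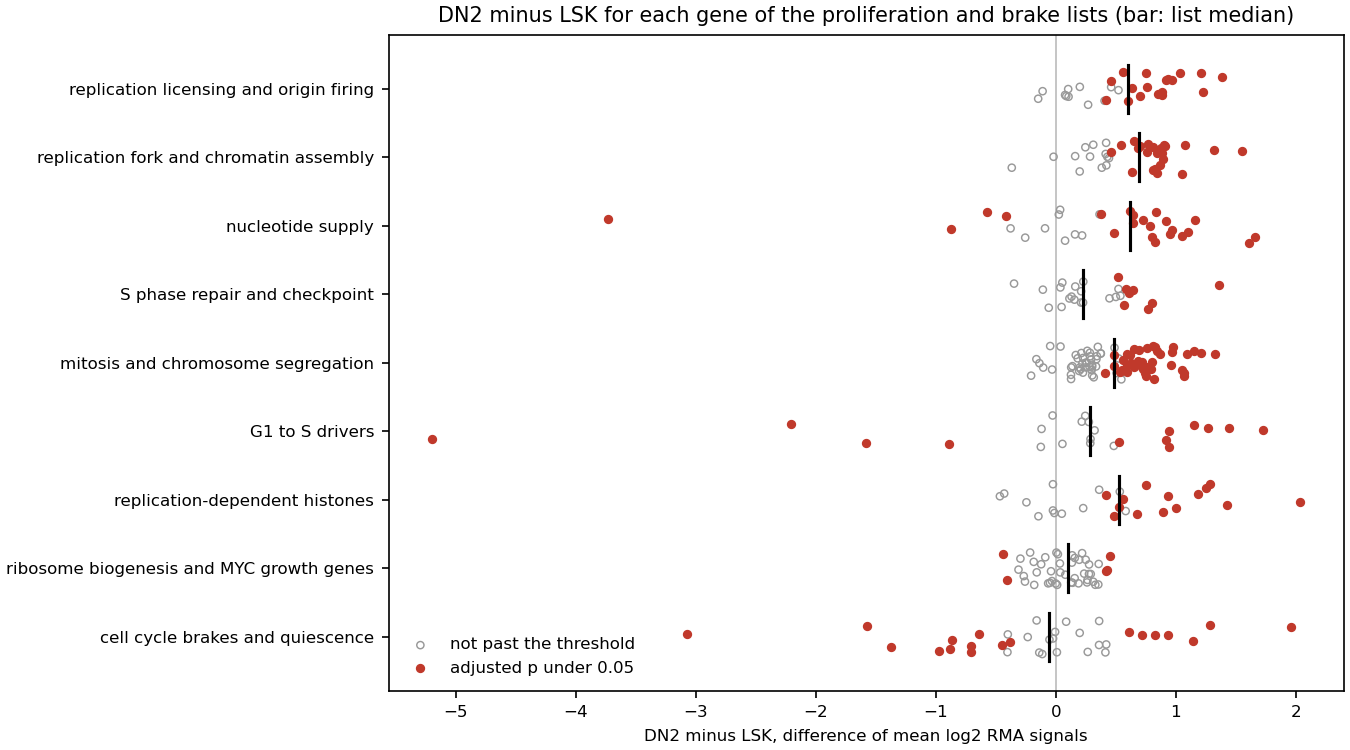
DN2 minus LSK (horizontal axis, difference of mean log2 signals) for each gene of the 8 proliferation lists and of the list of brakes, with filled red points at adjusted p under 0.05, open grey points otherwise and a black bar at the list median. The lists of licensing, fork, mitosis and histones hold no red point left of 0, while Samhd1 (-3.73) and Ccnd2 (-5.20) lie far to the left in the nucleotide and entry lists.

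Genes that drive entry into S phase moved in both directions. Of 23, 8 were higher and 4 lower in DN2 than in LSK, with a median of 0.29. Among all 22180 genes 2532 were higher and 3106 lower. Ccnd2, a D cyclin, read 5.62, 5.90 and 5.78 on the DN2 arrays, against 10.86, 11.08 and 10.95 on the LSK arrays (log2 difference -5.20, SE 0.13, adjusted p = 2.45e-10). Ccnd1 read 8.23, 8.69 and 8.51 on the DN2 arrays, against 7.17, 6.86 and 7.07 on the LSK arrays (log2 difference 1.45, SE 0.15, adjusted p = 1.79e-05). Ccnd3 read 9.65, 9.93 and 9.77 on the DN2 arrays, against 9.64, 9.45 and 9.60 on the LSK arrays and did not pass the test (adjusted p = 0.254). So the D cyclins split: Ccnd2 was near background on every DN2 array, Ccnd1 was above every LSK array, and Ccnd3 differed by 0.22. Signals of different probe sets are not comparable as levels, and the 3 genes cannot be ranked by them. Cdk6, their partner kinase, read 11.56, 11.66 and 11.54 on the DN2 arrays, against 10.46, 10.45 and 10.06 on the LSK arrays (log2 difference 1.26, SE 0.14, adjusted p = 2.95e-05). E2f2, an activating E2F, differed by 1.15, Cdca7, a target of MYC and E2F, by 1.73, Ccne1, a cyclin E, by 0.92, and Mybl2, which encodes B-MYB, by 0.94. E2f7, a repressor among the E2Fs, was lower by 1.58. Myc read 10.15, 10.59 and 10.24 on the DN2 arrays, against 11.27, 11.30 and 11.09 on the LSK arrays (log2 difference -0.89, SE 0.14, adjusted p = 0.000608). Mycn read 4.52, 4.47 and 4.32 on the DN2 arrays, against 6.68, 6.65 and 6.58 on the LSK arrays (log2 difference -2.20, SE 0.12, adjusted p = 8.19e-08). Both MYC genes were thus lower on every DN2 array than on any LSK array, with Mycn at background in DN2. Ccnd1, Ccnd3, Ccne1, Mybl2 and Myc, and below Cdkn2a, Cdkn2c and Cdkn1b, were named after their values were seen.

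Among 35 brakes of the cell cycle and genes of quiescence, 11 were lower and 7 higher, with a median of -0.05, beside 25.4% of all genes called and 11.4% called higher. Cdkn1a, which encodes the KIP protein p21, read 7.66, 7.90 and 7.99 on the DN2 arrays, against 11.01, 10.42 and 11.32 on the LSK arrays (log2 difference -3.07, SE 0.20, adjusted p = 4.44e-07). Cdkn2c, which encodes the INK4 protein p18, read 7.04, 7.25 and 7.36 on the DN2 arrays, against 6.28, 5.84 and 6.12 on the LSK arrays (log2 difference 1.14, SE 0.15, adjusted p = 0.000114). Cdkn2a, the INK4A and ARF locus, read 7.70, 7.95 and 7.91 on the DN2 arrays, against 6.63, 6.39 and 6.69 on the LSK arrays (log2 difference 1.28, SE 0.13, adjusted p = 1.85e-05). The groups did not overlap in any of these, and the KIP gene was lower while the INK4 genes were higher. Cdkn1b, which encodes p27, differed by 0.36 and did not pass (adjusted p = 0.0684). Trp53inp1, a p53 target that slows division, was higher by 1.96. Ypel3, another p53 target, was lower by 1.57 and Klf4, a factor that restrains division of many cell types, by 1.38.

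**Figure D3:**
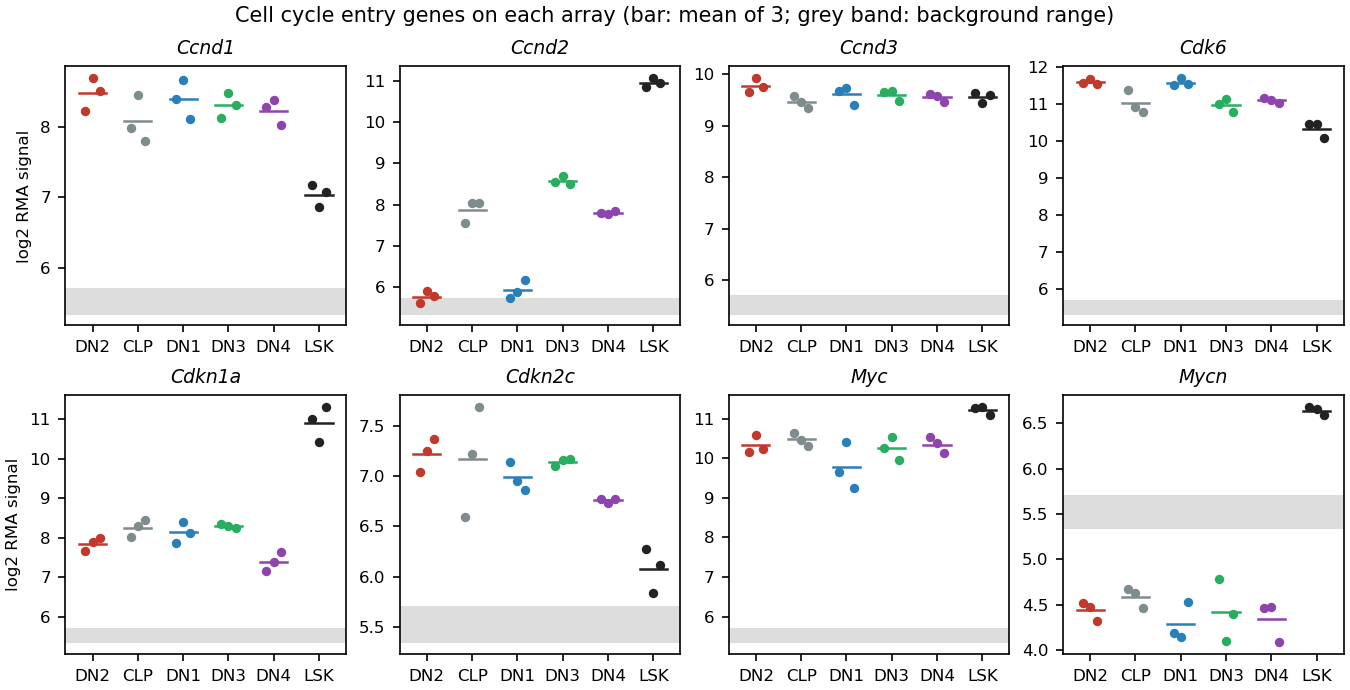
Log2 RMA signal (vertical axis) on each array for 3 D cyclins, Cdk6, 2 inhibitors and 2 MYC genes, with DN2 at the left, LSK at the right, bars at group means and a grey band for background. Ccnd2 averaged 5.77 in DN2 and 5.93 in DN1 but 7.81 to 8.58 in the other fractions and 10.96 in LSK, and Cdkn1a averaged 7.83 in DN2 and 10.90 in LSK.

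Among the lymphoma fractions, more proliferation genes were higher in DN2 against DN1 than against any other fraction, though the difference between these counts was not tested. The fractions share the DN2 arrays. Against DN1, 67 of the 301 genes were higher in DN2 and 1 lower, a share of 22.3% higher beside 0.708% of all genes higher (1.35% called in either direction). The 67 included 15 of 29 licensing genes, 15 of 36 fork genes, 8 of 26 repair genes, 21 of 84 mitotic genes, 4 of 31 nucleotide genes and 4 of 23 entry genes, with 0 histones and 0 ribosome genes. Cdc6 read 8.84, 9.16 and 9.0 on the DN2 arrays, against 8.07, 8.05 and 7.95 on the DN1 arrays (log2 difference 0.97, SE 0.12, adjusted p = 0.000413). Exo1, an exonuclease of mismatch repair and recombination, read 8.58, 8.66 and 8.74 on the DN2 arrays, against 7.76, 7.42 and 7.54 on the DN1 arrays (log2 difference 1.09, SE 0.14, adjusted p = 0.000387). Both were clear of overlap, and Chaf1a, a histone chaperone of the fork (log2 difference 1.11), Pold1, a catalytic subunit of a replicative polymerase (1.07), and Chek1 (1.15) moved likewise. Samhd1 was the 1 gene that was lower, at 5.11, 5.33 and 5.18 on the DN2 arrays, against 6.82, 7.15 and 7.12 on the DN1 arrays (log2 difference -1.83, SE 0.14, adjusted p = 1.89e-06). The count of 67 was 27 without DN2 replicate 2, 32 without DN2 replicate 3, 37 without DN1 replicate 3 and 105 without CLP replicate 1, and the cause was not tested. With the replicate number as a block in the model the count was 92.

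Against the other fractions few proliferation genes passed, though in many all 3 DN2 arrays lay above all 3 DN4 arrays. There were 7 higher and 2 lower against CLP (2.87% of all genes called in either direction), 2 higher and 2 lower against DN3 (2.45% called) and 8 higher and 1 lower against DN4 (2.65% called). The median log2 difference of the 301 genes was 0.04 against CLP, 0.01 against DN3 and 0.23 against DN4, beside 0.55 against DN1. In the mitotic list the median was 0.22 against CLP, 0.16 against DN3, 0.54 against DN4 and 0.66 against DN1. Between DN2 and DN3 the 2 sets of mitotic levels overlapped, at 8.31 to 8.60 in DN2 and 8.22 to 8.57 in DN3. By ranges alone, all 3 DN2 arrays lay above all 3 DN4 arrays in 132 of the 301 genes and below them in 6. Among all 22180 genes these counts were 2163 and 2153. The mean level of the 301 genes was 8.39 to 8.55 over DN2 arrays and 8.16 to 8.26 over DN4 arrays, without overlap.

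Against the mean of the other 4 fractions, 377 genes passed (1.7% of all), and 9 of the 301 proliferation genes were higher and 1 lower, a share of 2.99% higher beside 0.875% of all genes. The 9 were the mitotic genes Prc1, Kif14, Mki67, Stil, Ect2, Kif20b and Ncapg2, the repair gene Neil3 and E2f7, and the 1 lower was Ccnd2. Kif20b and Ncapg2 were named after their values were seen. Promoters of the 7 mitotic genes are shown, since these were most of the 9 higher proliferation genes, and that of Cdc6 for the replication genes. They come from RefSeq on GRCm38.p6, hold 250 bases before and 50 after the first listed start of each gene and run 5′ to 3′ on the strand of the gene. Capitals mark the words TTTGAA (CHR), CCAAT (the CCAAT box) and TTTCCCGC, TTTCGCGC, TTTGCCGC or TTTGGCGC (E2F words) on either strand.
Prc1, chr7:80294201-80294500, plus strand: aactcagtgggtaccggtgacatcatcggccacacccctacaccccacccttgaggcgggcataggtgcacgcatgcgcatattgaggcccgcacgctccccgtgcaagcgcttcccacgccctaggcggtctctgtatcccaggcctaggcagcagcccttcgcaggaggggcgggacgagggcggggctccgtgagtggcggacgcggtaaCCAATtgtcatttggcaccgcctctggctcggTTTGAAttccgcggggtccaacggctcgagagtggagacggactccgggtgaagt
Kif14, chr1:136467598-136467897, plus strand: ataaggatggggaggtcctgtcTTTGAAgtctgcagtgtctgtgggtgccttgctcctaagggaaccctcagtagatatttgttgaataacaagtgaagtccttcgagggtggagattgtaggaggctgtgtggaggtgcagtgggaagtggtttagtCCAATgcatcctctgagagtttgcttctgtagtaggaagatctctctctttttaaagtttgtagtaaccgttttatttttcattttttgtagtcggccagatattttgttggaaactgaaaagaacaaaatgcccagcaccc
Mki67, chr7:135716330-135716629, minus strand: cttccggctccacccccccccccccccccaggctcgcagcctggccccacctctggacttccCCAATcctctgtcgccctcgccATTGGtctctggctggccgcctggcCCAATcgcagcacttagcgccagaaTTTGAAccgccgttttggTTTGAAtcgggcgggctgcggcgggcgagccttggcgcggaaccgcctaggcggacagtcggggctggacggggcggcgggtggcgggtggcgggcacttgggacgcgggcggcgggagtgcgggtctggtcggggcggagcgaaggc
Ect2, chr3:27153829-27154128, minus strand: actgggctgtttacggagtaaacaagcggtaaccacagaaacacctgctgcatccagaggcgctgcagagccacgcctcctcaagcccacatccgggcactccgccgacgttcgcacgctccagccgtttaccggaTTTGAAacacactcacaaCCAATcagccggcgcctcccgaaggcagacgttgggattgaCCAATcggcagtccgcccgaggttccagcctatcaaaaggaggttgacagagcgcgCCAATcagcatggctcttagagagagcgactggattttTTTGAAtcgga
Ncapg2, chr12:116405186-116405485, plus strand: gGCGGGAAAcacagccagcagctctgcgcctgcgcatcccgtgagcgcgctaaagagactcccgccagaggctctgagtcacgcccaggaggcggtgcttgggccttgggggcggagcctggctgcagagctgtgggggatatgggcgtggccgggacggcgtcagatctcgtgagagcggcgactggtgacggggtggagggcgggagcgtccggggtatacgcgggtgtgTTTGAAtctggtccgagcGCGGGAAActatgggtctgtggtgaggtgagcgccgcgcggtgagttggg
Stil, chr4:114999868-115000167, plus strand: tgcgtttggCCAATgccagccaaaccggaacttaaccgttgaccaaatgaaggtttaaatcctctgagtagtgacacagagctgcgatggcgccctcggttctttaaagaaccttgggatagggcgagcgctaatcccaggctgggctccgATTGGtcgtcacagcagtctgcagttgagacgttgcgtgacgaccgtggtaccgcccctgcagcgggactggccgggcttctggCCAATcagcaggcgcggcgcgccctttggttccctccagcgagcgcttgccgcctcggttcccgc
Kif20b, chr19:34922108-34922407, plus strand: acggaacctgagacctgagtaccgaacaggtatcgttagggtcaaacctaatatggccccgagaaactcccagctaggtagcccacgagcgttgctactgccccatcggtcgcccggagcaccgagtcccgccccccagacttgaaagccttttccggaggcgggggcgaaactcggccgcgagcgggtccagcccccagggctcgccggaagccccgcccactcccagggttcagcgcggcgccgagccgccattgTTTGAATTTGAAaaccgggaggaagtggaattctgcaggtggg
Cdc6, chr11:98907901-98908200, plus strand: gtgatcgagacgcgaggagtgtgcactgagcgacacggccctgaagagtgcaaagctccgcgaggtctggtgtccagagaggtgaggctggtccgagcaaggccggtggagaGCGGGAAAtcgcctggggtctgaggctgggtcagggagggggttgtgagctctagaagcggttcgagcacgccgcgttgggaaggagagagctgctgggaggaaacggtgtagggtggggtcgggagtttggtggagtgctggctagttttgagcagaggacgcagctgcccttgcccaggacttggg

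The CHR word stood in 6 of the 7 mitotic promoters, all but that of Stil, and a CCAAT word in 5, all but those of Ncapg2 and Kif20b, while Cdc6 held 1 E2F word and neither of the others. Among the mitotic genes with a promoter in the table, 46 of 69 (66.7%) held the CHR word, against 18.1% of all 27025 promoters, and 37 of 69 (53.6%) held both CHR and CCAAT words, against 7.1% of all. The E2F words stood in 11 of 22 licensing promoters (50%) and 7 of 29 fork promoters (24.1%), against 6 of 69 mitotic promoters (8.7%) and 2.3% of all. In nucleotide supply the E2F words stood in only 2 of 30 promoters (6.7%), and the CHR word stood in 10 of 24 histone promoters (41.7%). A CCAAT word stood in 49 of 69 mitotic promoters (71.0%) and in 37.9% of all. In the ribosome biogenesis list the shares were 9.5% for CHR and 7.1% for the E2F words over 42 promoters. A match describes these letters in the window and shows no binding.

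Prc1, which bundles microtubules of the dividing spindle, read 8.54, 9.0 and 8.76 on the DN2 arrays, with means of 7.69 in CLP, 8.12 in DN1, 8.13 in DN3 and 7.73 in DN4 (against their mean: log2 difference 0.85, SE 0.16, adjusted p = 0.00526). Mki67, the marker of cycling cells, read 10.50, 10.77 and 10.71 in DN2, with means of 10.25 in CLP, 10.07 in DN1, 10.27 in DN3 and 10.03 in DN4 (log2 difference 0.50, SE 0.10, adjusted p = 0.015). Neil3 read 9.34, 9.47 and 9.38 in DN2, with means of 8.87 in CLP, 8.64 in DN1, 9.11 in DN3 and 8.79 in DN4 (log2 difference 0.55, SE 0.10, adjusted p = 0.00491). Mki67 and Neil3 lay above all 12 arrays of the other fractions, whereas DN3 array 2 overlapped DN2 in Prc1. Stil, which starts the doubling of centrioles, differed by 0.61, Kif14, a kinesin of cytokinesis, by 0.64, Ect2 by 0.55, Kif20b by 0.54 and Ncapg2, a condensin II subunit, by 0.50. Prc1 did not pass against LSK (log2 difference 0.26, adjusted p = 0.345), and neither did Kif20b (-0.046, adjusted p = 0.884). All 9 calls were lost when DN2 replicate 2 was left out, 2 genes passed without DN2 replicate 3, and 14 passed without CLP replicate 1 or CLP replicate 2. With the replicate number as a block in the model 17 passed.

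Few genes set DN2 apart from each of the other 4 fractions. In 1 gene DN2 was higher in all 4 tests (0.00451% of genes) and in 6 it was lower in all 4 (0.0271%), and the count of lower genes was 1, 2 and 3 without DN2 replicates 1, 2 and 3. Acan, which encodes aggrecan, the large proteoglycan of cartilage, was the gene that was higher. Its signal was 7.83, 8.11 and 7.95 on the DN2 arrays, 6.32, 6.66 and 6.17 in CLP, 7.09, 7.42 and 6.50 in DN1, 6.38, 6.21 and 5.93 in DN3, 6.31, 6.28 and 5.68 in DN4 and 5.10, 5.22 and 5.15 in LSK. Every DN2 array was above the other 15, DN1 had the next highest mean and LSK was at background. The smallest of the 4 differences was 0.96, against DN1 (SE 0.22, adjusted p = 0.0401), and the count of higher genes was 0 without DN2 replicate 1, 2 or 3 and 3 without CLP replicate 1. With the replicate number as a block in the model, 4 genes were higher and 7 lower than in each fraction.

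Cpa3, carboxypeptidase A3 of mast cell granules, was the lower gene with the largest gap. It read 6.73, 7.33 and 7.58 in DN2, 10.36, 9.41 and 10.79 in CLP, 9.08, 8.67 and 8.52 in DN1, 8.29, 8.77 and 8.19 in DN3, 8.69, 8.57 and 8.57 in DN4 and 8.15, 7.42 and 7.38 in LSK. DN2 lay below all 12 arrays of the other fractions and overlapped LSK. The smallest of its differences was -1.20, against DN3 (adjusted p = 0.0279). The mast cell receptor genes Fcer1a and Ms4a2 were at background on every DN2 array. Cyp2j6, a cytochrome P450 of fatty acid oxidation, was below the background band in DN2, at 4.29, 4.6 and 4.01. Its means were 6.09 in CLP, 5.32 in DN1, 6.58 in DN3, 6.67 in DN4 and 6.21 in LSK. The DN1 mean lay below the band as well, so the difference from DN1 was not an exact fold. Plpp3, a phosphatase of lipid phosphates, read 7.72, 7.72 and 7.81 in DN2, with means of 8.37 in CLP, 8.82 in DN1, 8.90 in DN3, 8.89 in DN4 and 5.86 in LSK. Sgip1, which acts in endocytosis, averaged 6.2 in DN2, against 7.13 to 7.5 in the other fractions and 4.98 in LSK. Rap1gap2, which switches off the GTPase RAP1, averaged 5.37 in DN2, in the background band, against 6.04 to 6.2 in the other fractions. Plpp3 and Sgip1 thus rose over LSK (log2 differences 1.89 and 1.22) but less than in the other fractions. The sixth was Trav7-4, a receptor alpha segment with near copies, at 7.51 in DN2 and 8.38 to 8.94 in the others, named after its value was seen. By ranges alone, the 3 DN2 arrays lay above all 12 others in 56 genes (0.252%) and below them in 62 (0.28%).

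**Figure D4:**
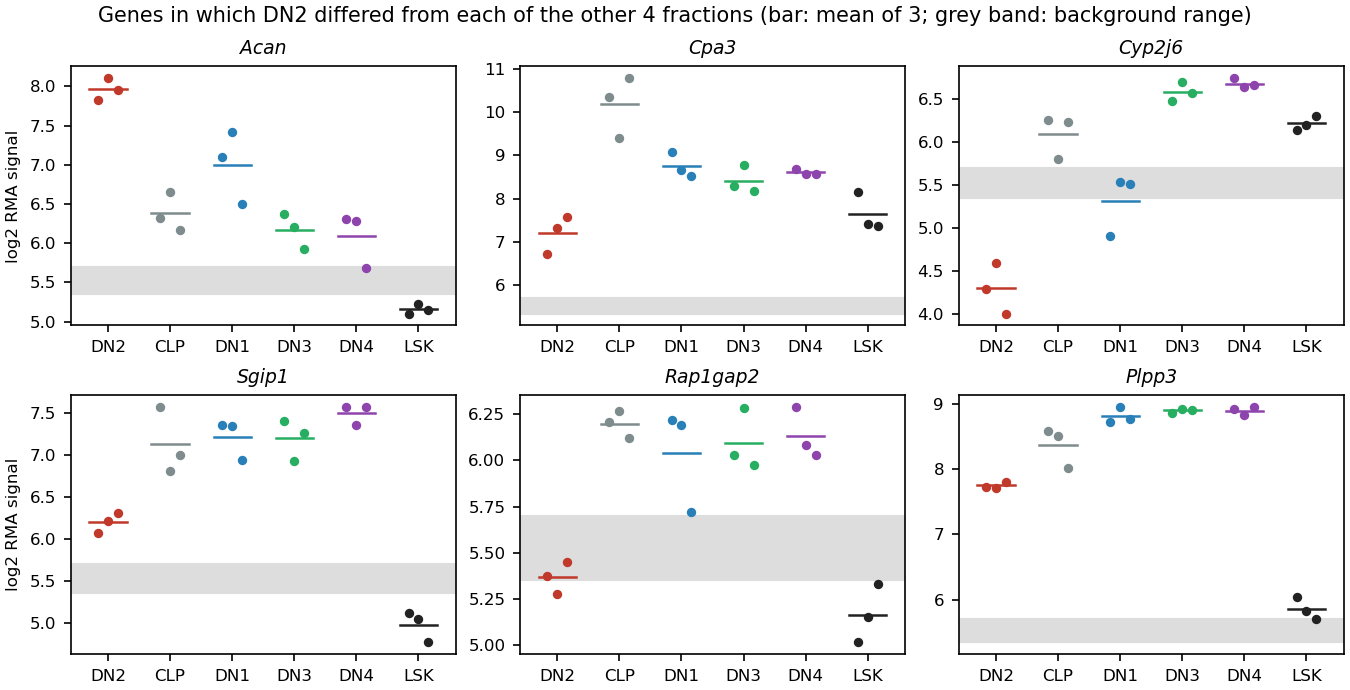
Log2 RMA signal (vertical axis) on each array of 6 genes in which DN2 differed from each of the other 4 fractions, with DN2 at the left, LSK at the right, bars at group means and a grey band for background. DN2 is above every other array in Acan and below all 12 arrays of the other fractions in the other 5, with LSK as low as or lower than DN2 in Sgip1, Rap1gap2 and Plpp3.

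The genes that lay farthest above or below the mean of the other fractions differed from CLP and DN4 throughout and from DN3 in all but Il2ra, while their differences from DN1 had either sign. Of the 377 genes called, 194 were higher and 183 lower in DN2, and the total was 235, 213 and 223 without DN2 replicates 1, 2 and 3. The 15 largest differences in each direction, a choice made after the values were seen, are described by their difference from each fraction, and these differences share the DN2 arrays. Over the 15 higher genes, DN2 minus DN4 ran from 1.87 to 5.20 and DN2 minus CLP from 1.07 to 3.92, while DN2 minus DN1 ran from -1.90 to 2.77. Moxd1, a relative of dopamine hydroxylase, read 9.96, 9.95 and 9.98 in DN2, 11.66, 11.70 and 11.72 in DN1 and at most 6.04 on average elsewhere (log2 difference 3.15, SE 0.24, adjusted p = 4.59e-07). Pcsk1, a convertase of prohormones, read 8.50, 8.53 and 8.69 in DN2, 10.61, 10.27 and 10.54 in DN1 and 4.30, 4.33 and 4.74 in DN3 (log2 difference 2.25, SE 0.23, adjusted p = 1.29e-05). Igfbp4, which binds insulin-like growth factors, read 9.84, 10.00 and 9.63 in DN2, 10.77, 10.97 and 10.56 in DN1 and 6.89, 6.75 and 6.57 in DN3 (log2 difference 1.81, SE 0.12, adjusted p = 9.26e-08). In these genes DN2 was between DN1 and DN3. Mrc1, the mannose receptor of macrophages, averaged 7.47 in DN2, 7.87 in DN1 and 5.08 to 5.33 elsewhere. In the same macrophage list 7 of 13 genes were at background on all DN2 arrays, among them Adgre1, Lyz2, Fcgr1 and Ms4a7. Against LSK 3 of the 13 were higher and 6 lower, and against the mean of the other fractions Mrc1 alone passed. Fmnl2, a formin that builds actin filaments, averaged 7.66 in DN2, 7.59 in DN1, 4.39 in DN4 and 8.76 in LSK, and Scmh1, a Polycomb protein, 8.27 in DN2, 7.96 in DN1, 5.78 in DN4 and 8.14 in LSK. Il2ra and Kit, high on the same scale, are genes of the sort.

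Over the 15 lower genes, DN2 minus DN3 ran from -4.37 to -1.20 and DN2 minus CLP from -4.51 to -1.80, while DN2 minus DN1 ran from -1.54 to 0.35. Susd4, a complement inhibitor, read 5.86, 6.22 and 5.92 in DN2 and 6.42, 6.08 and 5.6 in DN1, against 10.58, 10.33 and 10.19 in DN3 (log2 difference -3.15, SE 0.15, adjusted p = 1.69e-09). Pde9a, a phosphodiesterase of cyclic GMP, averaged 5.41 in DN2 and 5.06 in DN1, against 9.39 in DN3. Nfib, a transcription factor, averaged 5.85 in DN2 and 5.82 in DN1, against 8.85 in DN3. Ccnd2 belonged here as well, with 5.62, 5.90 and 5.78 in DN2 and 5.74, 5.89 and 6.16 in DN1, against 8.55, 8.69 and 8.49 in DN3 (log2 difference -1.78, SE 0.12, adjusted p = 1.14e-07). In these 4 genes the DN2 and DN1 arrays overlapped, and every DN3 array was above every DN2 array.

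**Figure D5:**
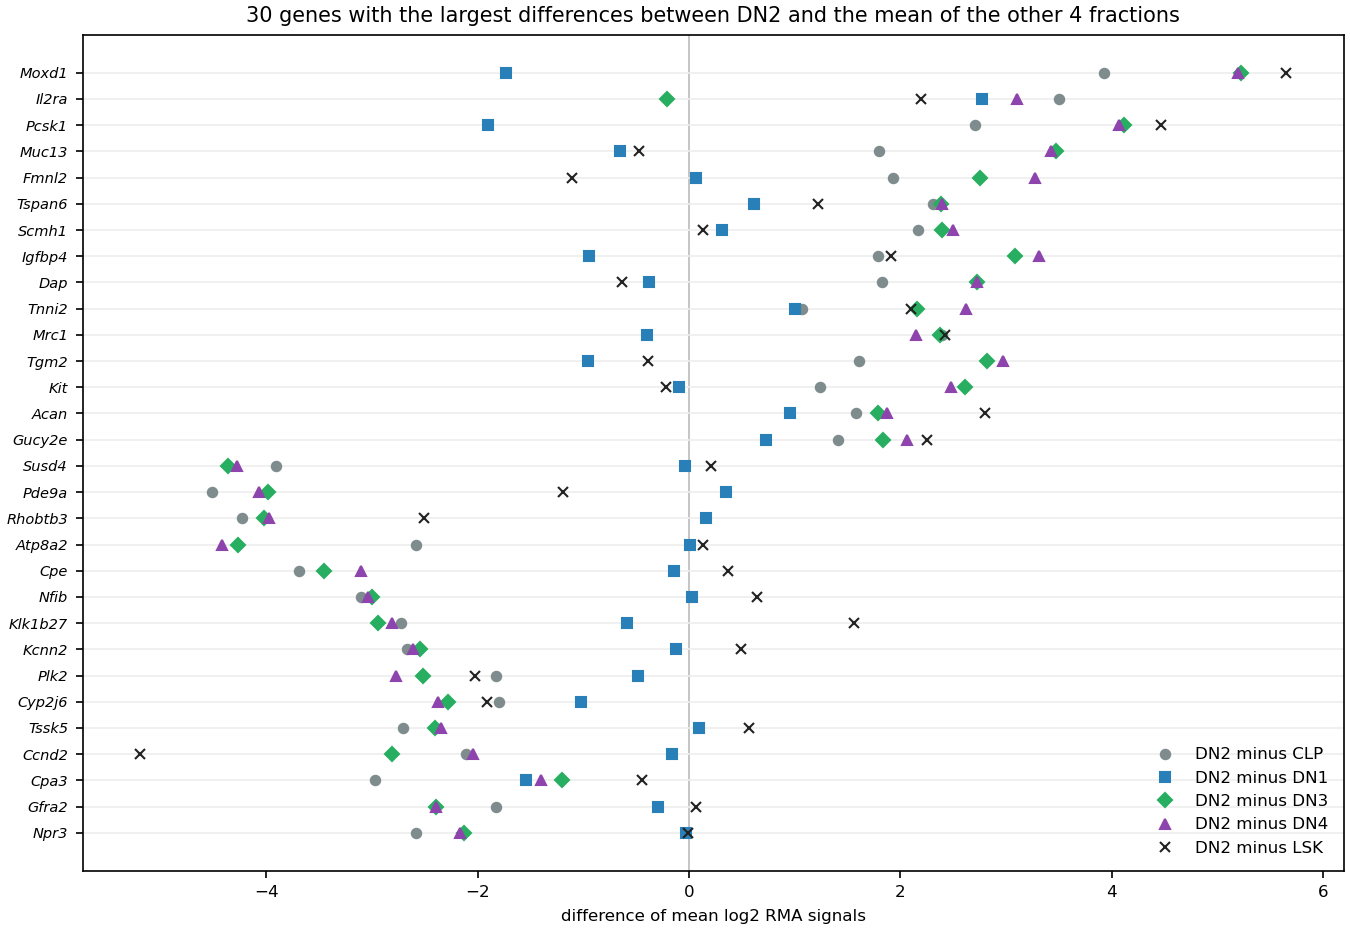
Difference of mean log2 signals (horizontal axis) between DN2 and each other group for the 15 genes most above and the 15 most below the mean of the other 4 fractions, 1 symbol per comparison. DN2 minus DN1 (squares) is -0.04 for Susd4 and 0.066 for Fmnl2, while DN2 minus DN3 and DN4 lie to 1 side of 0 in all but Il2ra, and Ccnd2 is the gene farthest below LSK (-5.20).

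Regulators of T cell commitment were mostly higher in DN2 than in LSK, and 3 Notch targets were below the mean of the other fractions. Of 29 commitment regulators, 19 were higher and 4 lower in DN2 than in LSK, where 25.4% of all genes were called. Against the mean of the other fractions 4 were lower and 0 higher, where 1.7% of all genes were called. Notch3, a Notch receptor, read 9.25, 9.47 and 9.09 on the DN2 arrays, against 5.34, 5.88 and 5.95 on the LSK arrays (log2 difference 3.55, SE 0.17, adjusted p = 3.68e-08), and it exceeded DN1 by 1.68 (adjusted p = 0.000344). Dtx1, a Notch target, averaged 8.73 in DN2, 7.21 in DN1, 10.19 in DN3 and 6.13 in LSK. The 4 below the mean of the other fractions were Ets2 (-1.14), Nrarp (-1.06), Heyl (-0.82) and Dtx1 (-0.58), of which Nrarp and Heyl are also Notch targets, and the calls of the last 3 were lost without DN2 replicate 3 or, for Heyl and Dtx1, also without another DN2 array. With the mean of its probe sets in place of the brightest, Dtx1 differed by -0.31 and did not pass (adjusted p = 0.644). Of 26 receptor and signalling genes, 21 were higher and 0 lower against LSK. Ptcra, the pre-receptor alpha chain that acts at DN3, averaged 7.04 in DN2, 5.84 in DN1, 8.97 in DN3 and 5.68 in LSK (against the mean of the other fractions: log2 difference -0.94, SE 0.13, adjusted p = 0.000329). Dntt, which adds bases at receptor joints, averaged 10.81 in DN2, 10.72 in DN1, 9.71 in DN3 and 8.57 in LSK (log2 difference 0.78, SE 0.11, adjusted p = 0.00056). Rag2, a chain of the recombinase, was at background in DN2 (3.40, 3.67 and 3.94), and its DN3 mean of 5.07 lay below the background band too. Its difference from the mean of the other fractions passed (log2 difference -1.09, SE 0.19, adjusted p = 0.00278), a call lost without DN2 replicate 1. With signals this low it is not an exact fold.

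Cytokine receptor genes moved in both directions, with 11 of 38 higher and 14 lower than in LSK, beside 25.4% of all genes called and 11.4% called higher. Tnfrsf8, which encodes CD30, the surface marker of anaplastic large cell lymphoma, read 10.56, 10.57 and 10.28 on the DN2 arrays, against 5.96, 5.12 and 5.63 on the LSK arrays (log2 difference 4.90, SE 0.19, adjusted p = 7.35e-09). Il17rb, a receptor of interleukin 25, was higher by 4.12. Il6ra was lower by 3.13 and Il4ra was lower by 2.74. Within the lymphoma, Il4ra averaged 8.12 in DN2, 9.64 in DN1 and 5.97 in DN3, and Il21r 7.41 in DN2, 8.52 in DN1 and 5.57 in DN3, while Il9r ran the other way with 7.61 in DN2, 7.5 in DN1 and 8.66 in DN3. All 3 passed against the mean of the other fractions, with adjusted p of 0.00249, 0.000165 and 0.00056, that of Il4ra being lost without DN2 replicate 2. Of 28 regulators of stem cells and early thymic progenitors, 23 were lower and 0 higher than in LSK, with a median of -2.14, and Kit, a gene of the sort, was the 1 higher than the mean of the other fractions.

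Genes of the amino acid response and of cholesterol synthesis were lower in DN2, against the direction of the replication genes. Of 28 genes of the amino acid response under the factor ATF4, 15 were lower and 1 higher than in LSK, with a median of -0.60. Among all 22180 genes 3106 were lower and 2532 higher, with a median of 0.04. Asns, asparagine synthetase, read 5.36, 5.24 and 5.38 on the DN2 arrays, against 9.65, 9.49 and 9.77 on the LSK arrays (log2 difference -4.31, SE 0.12, adjusted p = 6.98e-10). Slc7a11, the cystine carrier, read 3.83, 3.76 and 3.71 on the DN2 arrays, against 9.29, 8.17 and 7.75 on the LSK arrays (log2 difference -4.64, SE 0.30, adjusted p = 3.56e-07). Vldlr, a lipoprotein receptor, differed by -3.94. DN2 was at background in all 3 and far from LSK, and Ddit4, an inhibitor of mTORC1, was the 1 gene that rose (log2 difference 0.94). Of 19 genes of cholesterol synthesis, 11 were lower and 0 higher, with a median of -0.72. Msmo1, a sterol oxidase, read 7.08, 7.14 and 7.30 on the DN2 arrays, against 9.14, 9.0 and 9.07 on the LSK arrays (log2 difference -1.90, SE 0.12, adjusted p = 3.19e-07). Insig1, the sensor that holds the pathway back, was lower by 1.57, Cyp51, a sterol demethylase, by 1.62 and Fdft1, squalene synthase, by 1.40. Against the mean of the other fractions neither leading gene passed, with -0.15 for Asns (adjusted p = 0.999) and 0.22 for Msmo1 (adjusted p = 0.982).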

How the data were processed

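Sorted cells gave total RNA, which was amplified and biotin-labelled with the Affymetrix WT Pico kit and hybridised to 1 array per sample. The deposited table holds log2 intensities per probe set that the authors obtained with oligo and RMA, per the submitters' processing notes. Versions of these tools and the annotation build are not given in the sources used here. No further scaling was applied. Of 41345 probe sets, the platform annotation gave 1 gene symbol to 23521, several to 1814 and none to 16010, and only the first kind was used. Each of 22180 genes was read from its brightest probe set over 18 arrays, and 1082 genes had more than 1.

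Genes were tested with limma 3.58.1 in R 4.3.3, by lmFit and eBayes with two-sided p-values adjusted over all genes by Benjamini and Hochberg, at a threshold of 0.05. DN2 and LSK were fitted on their 6 arrays. Fractions were contrasted in 1 model of the 15 lymphoma arrays, and DN2 stood apart from each fraction where all 4 contrasts passed in 1 direction. The code was tested on simulated data with known changes. Precision is limited by the number of arrays. The table gives no slide or scan time, so batches were not tested.

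The genes named are the 12 largest rises and 12 largest falls against LSK without overlap, the genes apart from each fraction, and in each list up to 4 with the smallest p against LSK and up to 4 against the mean of the other fractions. The first 2 groups hold no predicted genes, small RNAs, chemosensory receptors or segments of antigen receptors, and exceptions are stated where they occur. Marker genes, Xist and Eif2s3y serve as checks. The members, lists, rules and alternatives were chosen with earlier results of these data known. Some genes are not analysed here. The alternatives tried were a filter on dim probe sets, quantile normalization, the average over a gene's probe sets, eBayes with its trend and robust options, a block for the replicate number, a model of 18 arrays, and the omission of each array. Omitting X and Y genes and omitting the CLP arrays were added after seeing the data.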

Additional observations from a re-analysis of the deposited data

Results flagged for a closer look

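In 7 genes DN2 differed in 1 direction from each of the other 4 fractions, each difference being tested (limma, adjusted p under 0.05 in all 4 contrasts). The value given is the smallest of the 4 log2 differences. It was 0.96 for Acan, the only gene of the 7 that was higher in DN2. It was -1.20 for Cpa3, -1.02 for Cyp2j6 and -0.93 for Sgip1. It was -0.87 for Trav7-4, -0.68 for Rap1gap2 and -0.62 for Plpp3. All 3 DN2 arrays lay below all 12 arrays of the other fractions in these 6. For Cyp2j6 the smallest difference was that from DN1, and both means lay below the background band. Groups of 3 arrays are too small to test a single array for standing apart.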

How the results depend on the processing

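Named genes kept their direction under the alternatives run for them, with 0 reversals, and 22 of 181 calls were lost under at least 1 alternative. Leaving out each array in turn gave 4572 to 5383 genes against LSK and 99 to 142 proliferation genes higher. Against the mean of the other fractions it gave 213 genes (without DN2 replicate 2) to 466 (without CLP replicate 1), with 0 to 14 proliferation genes. Genes apart from each fraction numbered 0 to 3 higher and 1 to 7 lower. The counts were 299 to 1270 genes against CLP, 144 to 437 against DN1 with 27 to 105 proliferation genes, 373 to 652 against DN3 and 399 to 716 against DN4. The count of genes higher than in each fraction was 1 as reported, 2 with the filter on dim probe sets, 0 with quantile normalization and 2 with all 18 arrays in the model. Without the CLP arrays, which was tried after seeing the data, 7 genes were higher and 11 lower than in each fraction, 29 proliferation genes passed against the mean of the others, and 537 genes with 119 proliferation genes passed against DN1. The cause was not tested. Without X and Y genes, also tried later, 5465 genes passed against LSK. Deviations of same-numbered arrays from their group means correlated between DN2 and DN3 at 0.22 to 0.36, DN4 at 0.12 to 0.50, DN1 at 0.10 to 0.50, CLP at 0.01 to 0.41 and LSK at -0.24 to 0.14, and 13 of 15 lymphoma arrays correlated best with their own number. The labels do not say whether a number marks the same lymphoma across fractions, and the LSK cells came from other mice. The numbers were therefore not taken as pairs, and whether arrays of a number share a lymphoma was not tested. With the replicate number as a block, 5552 genes passed against LSK, 435 against the mean of the other fractions with 17 proliferation genes (9 without it), 92 proliferation genes against DN1 (67 without it), and 4 genes were higher and 7 lower than in each fraction. Among the lists, genes higher than in LSK numbered 4 in S phase repair (8 as reported) without DN2 replicate 2, DN2 replicate 3 or LSK replicate 3, 26 in mitosis (40 as reported) without DN2 replicate 2, and between 0 (replicate block and 4 of the 6 omissions) and 6 (quantile normalization) in ribosome biogenesis (3 as reported). Signals in the background band bound no level below it.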

Other observations

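MHC class II genes, which present antigen on B cells, macrophages and some progenitors, were lower in DN2 than in LSK in 7 of 10 measured genes and higher in 2, with a median log2 difference of -0.80, beside 25.4% of all genes called. H2-Aa, an alpha chain, read 5.29, 5.68 and 5.50 on the DN2 arrays, against 8.49, 7.88 and 8.37 on the LSK arrays (log2 difference -2.75, SE 0.17, adjusted p = 2.84e-07). H2-Ab1, a beta chain, read 7.99, 8.07 and 8.21 on the DN2 arrays, against 10.77, 10.16 and 10.56 on the LSK arrays (log2 difference -2.41, SE 0.16, adjusted p = 4.75e-07), and it exceeded the mean of the other fractions by 1.18 (adjusted p = 0.00178), with a mean of 8.09 in DN2, 8.59 in DN1 and 6.35 in DN3. Against the mean of the other fractions H2-Ab1 was the 1 of 10 genes that was higher, while 2 were lower. Of all genes, 1.7% were called there. No DN2 array reached the LSK arrays in H2-Aa or H2-Ab1. H2-Oa, a chain that restrains peptide loading, went the other way, with 8.32, 8.44 and 8.58 on the DN2 arrays, against 6.80, 6.42 and 6.45 on the LSK arrays (log2 difference 1.89, SE 0.14, adjusted p = 1.15e-06). In markers of cells that carry MHC class II, the summed linear signal was 654 to 758 in DN2 and 591 to 1423 in LSK for B cell markers, 1602 to 2015 in DN2 and 2358 to 2764 in LSK for dendritic cell markers, and 1014 to 1241 in DN2 and 1296 to 1405 in LSK for macrophage markers. At background on all DN2 arrays were 10 of 13 B cell, 6 of 10 dendritic cell and 7 of 13 macrophage markers. Cd79a, Ms4a1, Pax5, Itgax, Adgre1 and Lyz2 were among these. Other markers lay above the band, with DN2 means of 7.7 for Sdc1, 7.54 for Cd209a and 6.38 for Irf8, and Mrc1 did so as well. Against LSK 1 of 13 B cell markers was higher and 5 lower, and 3 of 13 macrophage markers were higher and 6 lower. Of 10 dendritic cell markers 0 were higher and 4 lower. The part of such cells in the LSK values was not tested.

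Genes of the interferon response and of glycolysis and hypoxia moved in both directions against LSK. Of 24 interferon genes, 5 were higher and 10 lower, beside 11.4% of all genes higher and 25.4% called. Usp18, which removes ISG15 from proteins, was higher by 1.91 and Zbp1, a sensor of nucleic acids, by 1.34, while Oasl1 was lower by 1.66 and Rsad2, an antiviral enzyme, was lower by 1.55. Ifitm3, which blocks viral entry, was the 1 interferon gene above the mean of the other fractions, with means of 10.04 in DN2, 10.65 in DN1 and 8.04 in DN3 (log2 difference 1.16, SE 0.13, adjusted p = 4.35e-05). Of 29 genes of glycolysis and hypoxia, 10 were higher and 10 lower, beside the same shares of all genes. Vegfa, the vascular growth factor, read 6.14, 6.04 and 6.05 on the DN2 arrays, against 10.01, 10.36 and 10.20 on the LSK arrays (log2 difference -4.11, SE 0.13, adjusted p = 1.22e-09). Fbp1, an enzyme of gluconeogenesis, read 7.22, 7.49 and 7.77 on the DN2 arrays, against 5.06, 4.94 and 4.68 on the LSK arrays (log2 difference 2.60, SE 0.16, adjusted p = 2.72e-07). The groups did not overlap in these 2 genes, and Fbp1 averaged 7.49 in DN2, 5.83 in DN1 and 10.28 in DN3.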
